A study of Mus musculus with 2 samples.

Results

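Interferon-inducible GTPases of the GBP and IRG families were followed through leukocytes of mouse livers whose fibrosis had resolved, beside those of uninjured livers. The 10 genes were taken by symbol from the 31053 genes of the count tables. They comprise 5 guanylate-binding proteins (GBPs: Gbp2, Gbp3, Gbp4, Gbp5 and Gbp7) and 5 immunity-related GTPases (IRGs: Igtp, Irgm1, Iigp1, Ifi47 and Tgtp2). All 10 symbols were found once in each table. These genes, and the gene lists further below, were chosen with earlier results of these data known. Counts of lower genes set beside the share over all genes thus describe the data and do not test them. Single-cell RNA was counted by 10x 3′ droplet sequencing in 2 libraries, named RES and Ctrl. RES came from C57BL/6 mice with resolved liver fibrosis, and Ctrl from C57BL/6 mice without injury. In both, mononuclear cells were taken from the liver on a Histopaque gradient and sorted for CD45 and CD11b, and 5 mice were pooled. The agent behind the fibrosis, the time of resolution, and the age and sex of the mice were not given in the sources used here. Each group was thus 1 library, so no test between RES and Ctrl was possible, and differences between classes were not tested either. All intervals below are 95% intervals of counting error alone. They treat counts as independent of each other. The spread between cells, between mice and between preparations is not in them.

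GBPs and IRGs are GTPases that interferon gamma, and in part type I interferon, induces in macrophages and many other cells. The receptor signals through Jak1 and Jak2 to GAS elements in promoters and induces Irf1, which in turn binds ISRE elements. GBPs coat pathogen vacuoles and bacteria, help to break them and feed inflammasomes. Of the IRGs, the GKS type (Iigp1, Ifi47, Tgtp2) loads onto vacuoles, while the GMS type (Igtp, Irgm1) guards the cell's own membranes and restrains the others.

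RefSeq promoters of GRCm38.p6, from 250 bases before to 50 bases after the gene start, were held for 8 of the genes. They were searched on both strands for GAAA followed after any 2 bases by GAAA, the core of an ISRE, and for TTCNNNGAA, the form of a GAS. Matches of the first kind that overlap were each counted. The ISRE-type letters occurred in 7 of the 8 genes, all but Ifi47. Counted by promoter it was 7 of 9, as a second Gbp3 promoter held neither form. Of all 32851 promoters of the same length 3.44% held the ISRE-type letters. The GAS-type letters occurred in Gbp5, Gbp7, Igtp and Tgtp2, or 4 of the 9 promoters, while 8.3% of all promoters held them. The windows of 30 bases below, in the direction of the gene, are shown because they hold the interferon-type letters and show how near the forms lie to each other. Capitals mark the matches. A match describes letters and not a bound site.
Igtp (chr11:58199507-58199536, plus): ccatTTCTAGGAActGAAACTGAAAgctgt
Tgtp2 (chr11:49064268-49064297, minus): ccatTTCCAGGAAtcGAAACCGAAAcctac
Irgm1 (chr11:48871428-48871457, minus): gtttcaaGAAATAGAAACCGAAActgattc
Gbp2 (chr3:142620594-142620623, plus): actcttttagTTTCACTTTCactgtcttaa
Gbp3 (chr3:142559992-142560021, plus): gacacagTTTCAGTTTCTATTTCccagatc
Gbp5 (chr3:142496759-142496788, plus): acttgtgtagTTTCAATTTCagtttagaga
Gbp7 (chr3:142530273-142530302, plus): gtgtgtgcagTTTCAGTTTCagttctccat

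In Igtp and Tgtp2 a GAS-type and an ISRE-type match stand side by side in the same window, and the GAS-type match begins 45 bases before the start in Igtp and 81 bases before it in Tgtp2. The Gbp2, Gbp5 and Gbp7 windows hold the ISRE-type letters on the opposite strand, as do the 2 overlapping matches of Gbp3. In Gbp5 the GAS-type matches lie apart from the ISRE-type match, and the one nearer to the gene start is in chr3:142496872-142496901, tggccgttatTTCTCAGAAccaagcacaga. In Gbp7 a pair of GAS-type matches lies upstream, in chr3:142530229-142530258, tTTCCAGGAAaagcagaagcTTCTCAGAAa. Of the genes with both forms, Gbp5 and Tgtp2 had lower ratios of RES over Ctrl than Gbp7 and Igtp in monocytes and macrophages, as given below. With a pseudocount of 10 CPM Tgtp2 no longer lay below Gbp7 and Igtp there. In NK cells Igtp (-0.60) lay below Tgtp2 (-0.48) and Gbp5 (-0.18). Whether the promoter letters bear on these ratios was not tested.

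The tables held 4278 RES and 3691 Ctrl barcodes with 34119806 UMIs in RES and 20379164 in Ctrl. A UMI is a random tag that marks 1 captured RNA molecule. After filters, 4019 RES and 3351 Ctrl cells remained, with medians of 6365 UMIs per RES cell and 4506 per Ctrl cell. The libraries had 56 barcodes in common, and without them all counts of lower genes below were the same. Marker gates placed 1989 RES and 1076 Ctrl cells among monocytes and macrophages (49.5% of RES and 32.1% of Ctrl). They placed 1489 RES and 1590 Ctrl cells among NK cells, 137 RES and 229 Ctrl cells among conventional dendritic cells (cDC), and 62 RES and 57 Ctrl cells among B cells. Of the sort's own genes, Ptprc (CD45) had a UMI in 98.0% of RES and 98.1% of Ctrl cells, and Itgam (CD11b) in 74.6% of RES and 55.1% of Ctrl cells. Among B cells Itgam had a UMI in 17.7% of RES and 7.02% of Ctrl cells. Levels are UMIs summed over the cells of a class and scaled to all UMIs of that class (CPM). Each UMI comes from a transcript's 3′ end, so the levels were not divided by gene length. Over all kept cells the 10 genes summed to 218 CPM in RES and 613 CPM in Ctrl, and all 10 were at least 1.5-fold lower in RES. Of all genes with a mean of at least 10 CPM, 3.88% were that much lower and 5.55% that much higher.

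In monocytes and macrophages all 10 GTPase genes were lower in RES than in Ctrl. Their summed level was 142 CPM in RES (137 to 147) and 785 CPM in Ctrl (765 to 805), a log2 ratio of -2.47 (-2.53 to -2.40). Of the 1989 RES cells 695 lay in cluster 3, which had 17 Ctrl cells in all, and of the 1076 Ctrl cells 317 lay in cluster 2. Within clusters 0, 1 and 2 of this lineage, described below, the ratios were -0.89, -0.87 and -1.77. Each of the 10 was at least 1.5-fold lower, and 4.93% of the 7447 genes with a mean of at least 10 CPM were that much lower and 7.57% that much higher. Iigp1 and Tgtp2 had means under 10 CPM, so among genes past that minimum it was 8 of 8. With no minimum level 17.3% of all genes were lower. The median log2 ratio was -2.50 over the 10 genes and 0.04 over all genes counted. The GBPs together had a ratio of -2.91 (-3.0 to -2.82) and the IRGs -1.81 (-1.91 to -1.71).

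Of the GBPs, Gbp2, which is recruited to vacuoles and to cytosolic bacteria, was the most abundant of the 10 genes in Ctrl monocytes and macrophages. Its level was 18.7 CPM in RES, against 254 CPM in Ctrl, a log2 ratio of -3.76 (-3.93 to -3.60). Gbp5, which promotes inflammasome assembly, had 8.76 CPM in RES and 93.9 CPM in Ctrl (-3.42, -3.67 to -3.18). Gbp4 was low in these cells, with 1.71 CPM in RES and 26.5 CPM in Ctrl (-3.95, -4.53 to -3.42). Gbp3 and Gbp7, a GBP tied to the assembly of the NADPH oxidase, differed less. Gbp3 had 22.3 CPM in RES and 87.6 CPM in Ctrl (-1.97, -2.15 to -1.80). Gbp7 had 20.5 CPM in RES and 78.5 CPM in Ctrl (-1.94, -2.13 to -1.75). The intervals of Gbp2, Gbp4 and Gbp5 lay below those of Gbp3 and Gbp7, but with a pseudocount of 10 CPM Gbp4 (-1.64) stood near Gbp3 (-1.60) and Gbp7 (-1.54).

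Among the IRGs, the low-abundance GKS genes Tgtp2 and Iigp1 had the lowest ratios, but the order turned with a pseudocount of 10 CPM, which gave -0.73 for Tgtp2, -1.12 for Iigp1, -1.06 for Irgm1, -1.29 for Igtp and -1.65 for Ifi47. Tgtp2 had 9 UMIs in RES and 55 in Ctrl, or 0.466 CPM in RES and 7.36 CPM in Ctrl (-3.98, -5.18 to -2.95). Iigp1, an effector that strips the vacuoles of Toxoplasma, had 38 UMIs in 7 RES cells and 120 UMIs in 28 Ctrl cells, or 1.97 CPM in RES and 16.1 CPM in Ctrl (-3.03, -3.60 to -2.49). Ifi47, the third GKS gene, was the most abundant IRG in Ctrl, with 28.6 CPM in RES and 111 CPM in Ctrl (-1.96, -2.11 to -1.80). The GMS regulator Igtp differed about as much as Ifi47. It had 11.4 CPM in RES and 42.2 CPM in Ctrl (-1.89, -2.14 to -1.63). Irgm1, the other GMS regulator, whose loss in mice impairs autophagy, had the ratio nearest to 0 without a pseudocount, with 27.5 CPM in RES and 68.4 CPM in Ctrl (-1.31, -1.49 to -1.14). Its interval lay above those of the other 9 genes.

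The genes lie in few loci, with positions here from the GENCODE M21 annotation of GRCm38. Gbp5 (3:142493978-142522344), Gbp7 (3:142530342-142550149), Gbp3 (3:142560026-142573209) and Gbp2 (3:142620602-142638008) follow each other on the plus strand of chromosome 3. Gbp4 lies on chromosome 5 (5:105115767-105139586, minus strand). Irgm1 (11:48861968-48871683, minus), Tgtp2 (11:49057194-49064206, minus), Ifi47 (11:49076587-49096974, plus) and Igtp (11:58199556-58207591, plus) lie on chromosome 11. Iigp1 lies on chromosome 18 (18:60376027-60392634, plus). All 10 are protein-coding genes. Counts of some of these genes depend on how reads were shared between copies. In the last 500 bases of the Tgtp2 transcript, all 411 stretches of 90 bases also occur in Tgtp1, so the 2 genes cannot be told apart there and the Tgtp2 value is uncertain. For Gbp4, which overlaps Gbp8 and Gbp9 on the same strand, 8.22% of such stretches were shared with other genes. Igtp shared 8.01% of its exonic bases with the overlapping gene Irgm2. The values for the other 7 genes had at most 1.76% of such stretches in common with another gene.

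**Figure D1:**
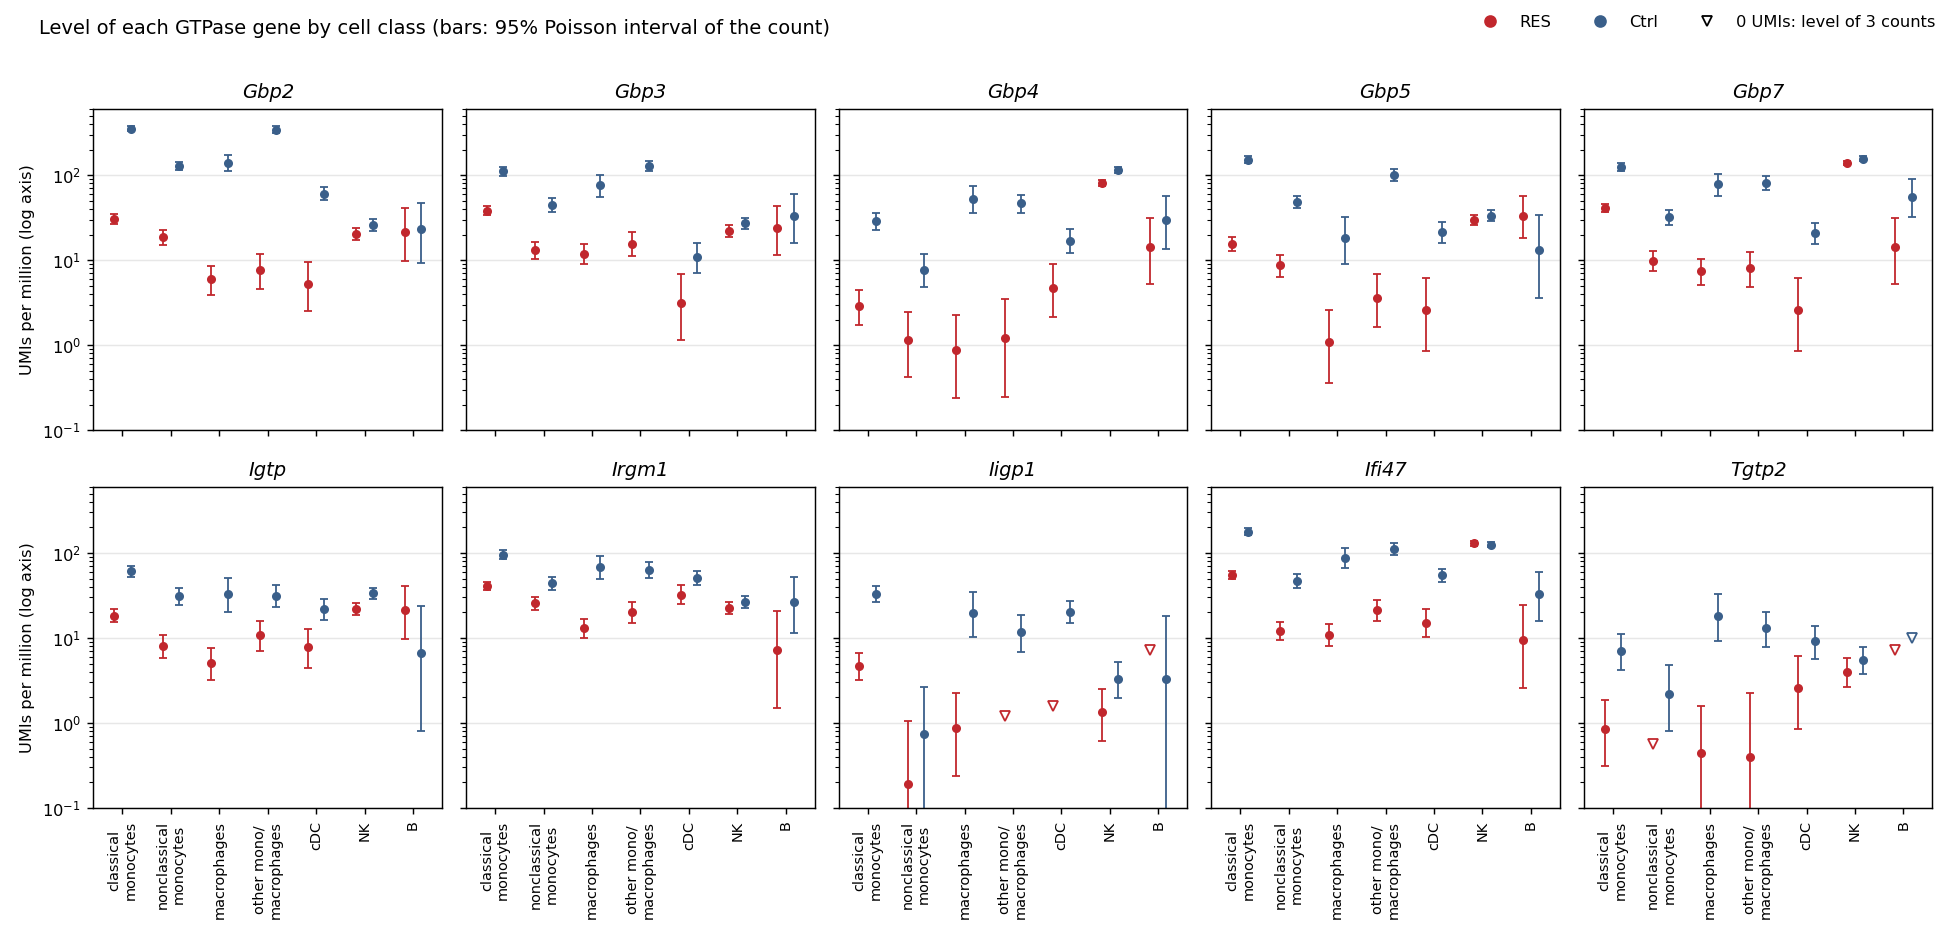
Level of each of the 10 GTPase genes (CPM, log axis) in 7 cell classes, RES left of Ctrl; bars are 95% Poisson intervals, cut at the lower axis limit, and open triangles stand at the level of 3 counts where a gene had 0 UMIs. Ctrl points lie above RES points for all 10 genes in the monocyte, macrophage and cDC classes, while in NK cells the points of the 2 libraries lie close together.

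The subsets of this lineage had the same direction. In classical monocytes, gated on markers such as Ccr2 and Chil3, all 10 genes were at least 1.5-fold lower in RES (of all genes 4.73% were lower and 6.33% higher), with summed levels of 248 CPM in RES and 1146 CPM in Ctrl (-2.21, -2.29 to -2.12). As gated, these cells had the highest summed level of any class in Ctrl, but 78 of the 345 Ctrl cells lay in cluster 2, described below. In nonclassical monocytes 9 of 10 genes were lower (of all genes 2.72% were lower and 6.95% higher), with 97.7 CPM in RES and 388 CPM in Ctrl (-1.99, -2.15 to -1.84). The gene outside the count was Iigp1, with 1 UMI in RES and 2 UMIs in Ctrl. Tgtp2 had 0 UMIs in RES and 6 UMIs in Ctrl nonclassical monocytes, at least 3.88-fold lower when 3 counts are allowed in RES.

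In macrophages all 10 were again lower, with 57.6 CPM in RES and 593 CPM in Ctrl (-3.36, -3.60 to -3.13), but 22.2% of all genes were that much lower there and 18% that much higher. The class also held different cells in the libraries. Of 363 RES macrophages 320 fell in cluster 3, led by Arg1 and Spp1, and of 91 Ctrl macrophages 42 fell in cluster 12, led by C1qa and C1qc. A further 24 RES and 39 Ctrl macrophages fell in cluster 2, described below, so the Ctrl level is not that of cluster 12 alone. Kupffer cell markers summed to 3.3 CPM in RES and 29.9 CPM in Ctrl macrophages, with 1 of 5 markers at 0 in RES and 2 of 5 in Ctrl. The remaining monocytes and macrophages had 89.0 CPM in RES and 935 CPM in Ctrl (-3.39, -3.61 to -3.19), with all 10 genes lower while 12.9% of all genes were lower and 16.3% higher. Their RES cells were mostly in cluster 3 (166 of 251) and their Ctrl cells in cluster 2 (113 of 221). Iigp1 had 0 UMIs in RES and 17 in Ctrl in these cells, at least 9.73-fold lower.

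Clusters built without the 10 genes and the interferon lists gave smaller differences for both kinds of monocyte. In cluster 0, led by genes such as Mmp8 and the classical monocyte markers F13a1 and Chil3, the summed level was 255 CPM in RES and 472 CPM in Ctrl (-0.89, -1.0 to -0.78), and 7 of the 10 genes were at least 1.5-fold lower where 2.72% of all genes were. In cluster 1, led by the nonclassical monocyte genes Cd300e and Ace, it was 80.8 CPM in RES and 147 CPM in Ctrl (-0.87, -1.13 to -0.60), with 4 of the 10 lower where 3.0% of all genes were. There, Gbp5 had 11.7 CPM in RES and 11.8 CPM in Ctrl. Cluster 2 held 150 RES and 343 Ctrl cells and was led by Cxcl9 and Cxcl10, chemokine genes that interferon gamma induces, and by Gbp2. Its summed level was 446 CPM in RES and 1524 CPM in Ctrl (-1.77, -1.89 to -1.66), the highest of the 11 clusters compared in Ctrl. Within it Gbp2 had 77.8 CPM in RES and 559 CPM in Ctrl (-2.84, -3.13 to -2.57), and Irgm1 63.1 CPM in RES and 97 CPM in Ctrl (-0.62, -0.97 to -0.28). By marker gates, 78 of the 345 Ctrl classical monocytes and 87 of the 419 Ctrl nonclassical monocytes lay in cluster 2.

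**Figure D2:**
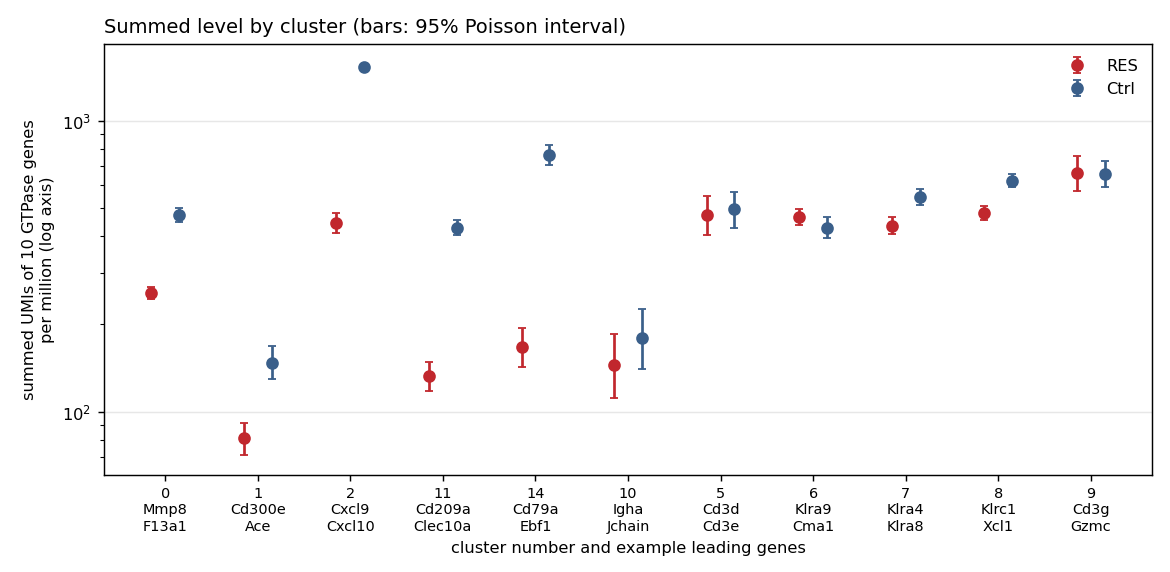
Summed level of the 10 GTPase genes (CPM, log axis) in clusters numbered as in the text, with 2 example leading genes each; points are RES (left) and Ctrl (right) and bars are 95% Poisson intervals. In clusters 0, 1, 2, 7, 8, 11 and 14 the RES point lies below the Ctrl interval, while in clusters 5, 6, 9 and 10 the 2 intervals overlap.

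In cDC, all 10 genes were at least 1.5-fold lower in RES (of all genes 5.73% were lower and 6.92% higher), with 76.3 CPM in RES and 289 CPM in Ctrl (-1.92, -2.19 to -1.66). The RES values rest on 146 UMIs in 137 cells. Gbp2 had 5.23 CPM in RES and 60.8 CPM in Ctrl (-3.54, -4.63 to -2.62). Iigp1 had 0 UMIs in RES and 47 in Ctrl, at least 13-fold lower. Irgm1, the most abundant of the 10 in RES cDC, was the nearest to level, with 32.4 CPM in RES and 50.8 CPM in Ctrl (-0.65, -1.12 to -0.19). With gates on cells thinned to 1000 UMIs 7 genes were lower, where 12.4% of all genes were, among 58 RES and 86 Ctrl cells. Igtp (-0.11), Irgm1 (-0.08) and Ifi47 (-0.42) were then within 1.5-fold. With stricter gates 5 genes were lower, among 46 RES and 99 Ctrl cells. Monocyte and macrophage markers summed to 1248 CPM in RES and 1571 CPM in Ctrl cDC, with none of the 8 markers at 0, and their part in the result was not tested.

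In B cells, all of them in cluster 10, led by Igha and Jchain, the 10 genes had 61 UMIs in RES and 68 in Ctrl. Their sum was 146 CPM in RES and 224 CPM in Ctrl (-0.62, -1.14 to -0.10), and 4 were lower and 2 higher, while 16.8% of all genes were lower and 19.8% higher. The ratio's interval was below 0 for 1 of the 10 genes, so for the others a difference was not detectable at this depth. Cluster 14, led by the B cell genes Cd79a and Ms4a1, held none of these gated cells and had 60 RES and 59 Ctrl cells. Its summed level was 167 CPM in RES and 763 CPM in Ctrl (-2.19, -2.45 to -1.94). Cluster 14 held 982807 UMIs in RES and 780044 in Ctrl, while the gated B cells held 417477 in RES and 303533 in Ctrl. Gbp2 stood at 279 CPM in Ctrl cells of cluster 14 and at 23.1 CPM in gated Ctrl B cells. Whether barcodes of cluster 14 hold more than 1 cell was not tested, so its level is not read as that of B cells.

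In NK cells the 10 genes together were 1.17-fold lower in RES, and most were within 1.5-fold. The sum was 473 CPM in RES (457 to 490) and 554 CPM in Ctrl (535 to 574), a log2 ratio of -0.23 (-0.30 to -0.16). Only Igtp and Iigp1 were at least 1.5-fold lower, and none was that much higher. Among genes with a mean of at least 10 CPM this was 1 of 8, Igtp, where 0.923% of all such genes were lower and 0.976% higher. With no minimum level it was 2 of 10, where 14.4% of all genes were lower. Igtp stood at the edge of the threshold, with 22.2 CPM in RES and 33.7 CPM in Ctrl (-0.60, -0.92 to -0.29), and Iigp1 rested on 9 UMIs in RES and 19 in Ctrl. The 3 most abundant genes were within 1.5-fold. Gbp7 had 139 CPM in RES and 157 CPM in Ctrl (-0.17, -0.30 to -0.04). Ifi47 had 130 CPM in RES and 126 CPM in Ctrl (0.06, -0.09 to 0.20). Gbp4 had 81.0 CPM in RES and 116 CPM in Ctrl (-0.52, -0.69 to -0.36). The intervals of 6 of the 10 genes included 0. By cluster, the summed ratio was 0.12 (-0.03 to 0.28) in NK cluster 6 and 0.01 (-0.24 to 0.25) in cluster 9. It was -0.32 (-0.46 to -0.19) in NK cluster 7 and -0.36 (-0.48 to -0.25) in NK cluster 8. Cluster 9 met the NK marker thresholds, but Cd3g, Cxcr6, Itga1 and Tnfsf10 were among its leading genes. Whether it holds conventional NK cells was not tested. Gbp4 was at least 1.5-fold lower in clusters 7 (-0.62) and 8 (-0.80), but not in clusters 6 (0.27) and 9 (-0.40). Gbp3 and Igtp were also that much lower in clusters 7 (-0.66 and -1.02) and 8 (-0.59 and -0.84), and Gbp2 in cluster 8 (-0.75). Iigp1 was lower in both, on 0 RES and 4 Ctrl UMIs in cluster 7 and 6 RES and 12 Ctrl UMIs in cluster 8. In cluster 9 Tgtp2 was lower (-2.33) and Gbp5 higher (1.36), on at most 10 UMIs per library. With 1 library per group it could not be tested whether NK cells differed from monocytes and macrophages in the ratio of RES over Ctrl. The counting intervals of the summed ratios did not overlap, but they leave out the spread between cells and between mice.

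**Figure D3:**
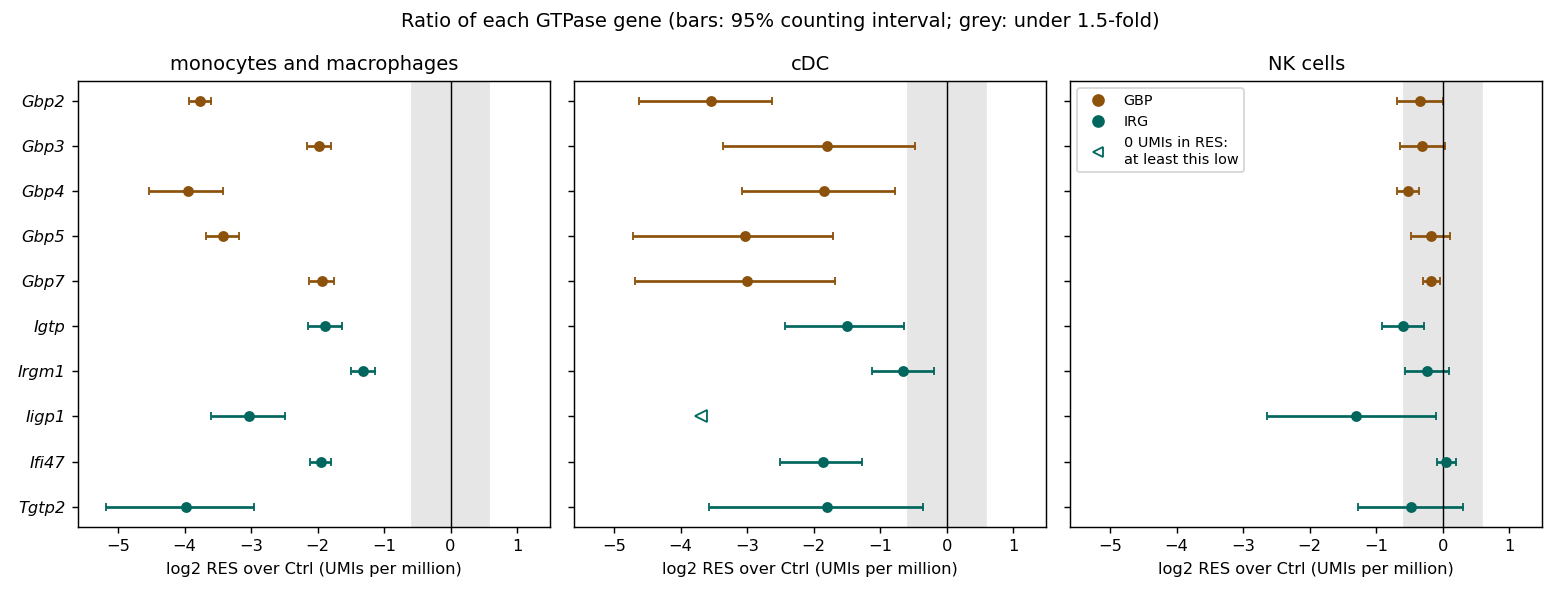
Log2 ratio of RES over Ctrl for each GTPase gene in monocytes and macrophages, cDC and NK cells; points are ratios of CPM, bars 95% counting intervals and the grey band ratios under 1.5-fold, and the open arrow (Iigp1 in cDC) is an upper bound from 0 UMIs in RES. All 10 genes lie left of the band in monocytes and macrophages, and 8 of the 10 lie inside it in NK cells.

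The mix of genes also differed between these cell types. Gbp2 made up 13.2% of the 10 genes' UMIs in RES monocytes and macrophages and 32.3% in Ctrl, but 4.32% in RES and 4.67% in Ctrl NK cells. In NK cells the leading genes were Gbp7 (29.4% in RES, 28.2% in Ctrl), Ifi47 (27.6% in RES, 22.7% in Ctrl) and Gbp4 (17.1% in RES, 21% in Ctrl). In RES monocytes and macrophages the leading genes were Ifi47 (20.1%, against 14.1% in Ctrl) and Irgm1 (19.4%, against 8.72% in Ctrl), whose shares did not differ beyond counting error within RES. There were 10.9 Gbp2 UMIs per Gbp4 UMI in RES monocytes and macrophages (7.65 to 16.1) and 9.57 in Ctrl (8.26 to 11.1). In NK cells there were 0.252 in RES (0.208 to 0.305) and 0.222 in Ctrl (0.185 to 0.266). The ratio thus differed more between these 2 cell types than between the libraries. In cDC it was 1.11 in RES (0.406 to 3.09), on 9 Gbp4 UMIs, and 3.59 in Ctrl (2.5 to 5.26). As a measure of RNA carried over between droplets, the monocyte genes F13a1, Chil3 and Vcan stood in NK cells at no more than 0.98% of their level in monocytes and macrophages, and the NK genes Klra8, Klra4 and Gzmb in monocytes and macrophages at no more than 0.565% of their level in NK cells. The share was higher for F13a1 in cDC, at 5.06% in RES and 10.6% in Ctrl, while Chil3 and Vcan stood there at no more than 1.46%. Whether F13a1 in cDC was carried over was not tested. In B cells Klra8 stood at 2.56% in RES and 0.401% in Ctrl, on 9 UMIs in RES and 1 in Ctrl, and Klra4 and Gzmb at no more than 0.567%. Gbp4 stood at 81.0 CPM in RES NK cells and 1.71 CPM in RES monocytes and macrophages, and the part of carried-over RNA in that low value was not tested.

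By level in Ctrl, the classes ran from classical monocytes (1146 CPM) through the remaining monocytes and macrophages (935), macrophages (593), NK cells (554), nonclassical monocytes (388) and cDC (289) to B cells (224). The intervals of macrophages and NK cells overlapped, as did those of cDC and B cells. This order rests on the gates. By cluster, Ctrl had 472 CPM in classical monocyte cluster 0 and 147 CPM in nonclassical monocyte cluster 1. The NK clusters of Ctrl had 429 CPM (cluster 6), 545 CPM (cluster 7) and 621 CPM (cluster 8), and cluster 9, whose leading genes are given above, had 657 CPM. In RES the order was NK cells (473 CPM), classical monocytes (248), B cells (146), nonclassical monocytes (97.7), the remaining monocytes and macrophages (89.0), cDC (76.3) and macrophages (57.6). The interval of the remaining monocytes and macrophages (77.6 to 101) overlapped those of nonclassical monocytes (89.5 to 107) and of cDC (64.5 to 89.8), and that of cDC overlapped that of macrophages (50.9 to 65.1). Nonclassical monocytes and macrophages did not overlap.

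Counts per cell were compared after each cell had been thinned to 1000 UMIs. At least 1 of the 10 genes was seen in 206 of 1977 RES (10.4%, 9.11 to 11.9) and 310 of 1035 Ctrl (30%, 27.2 to 32.8) monocytes and macrophages. Without thinning the shares were 45.7% in RES and 65.1% in Ctrl, at median depths of 9494 UMIs in RES and 6995.5 in Ctrl. No class is known to lack these genes, and in B cells the thinned shares were 10.0% in RES and 12.3% in Ctrl, so the RES share stood near that of B cells. Cells with 3 or more of the genes made up 0.405% of RES (0.175 to 0.796) and 5.60% of Ctrl (4.28 to 7.18). Cells with any of the genes held a mean of 1.42 such UMIs in RES and 2.43 in Ctrl. For comparison, the NK receptor gene Klra8 had a UMI in 4.52% of RES and 1.77% of Ctrl monocytes and macrophages, unthinned.

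In classical monocytes 16.0% of RES (13.3 to 19.0) and 35.5% of Ctrl cells (30.4 to 40.8) held at least 1 of the genes. Cells with 3 or more made up 1.07% in RES and 9.88% in Ctrl. In NK cells the shares with at least 1 were 34.8% in RES (32.4 to 37.3) and 38.1% in Ctrl (35.7 to 40.6), with overlapping intervals, and those with 3 or more were 0.741% in RES (0.371 to 1.32) and 2.3% in Ctrl (1.61 to 3.17). When NK cells were thinned to 2000 UMIs instead, the order turned, at 60.8% in RES and 58.3% in Ctrl, so no order was read from the NK shares. For monocytes and macrophages the shares at 2000 UMIs were 18.2% in RES and 43.3% in Ctrl.

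**Figure D4:**
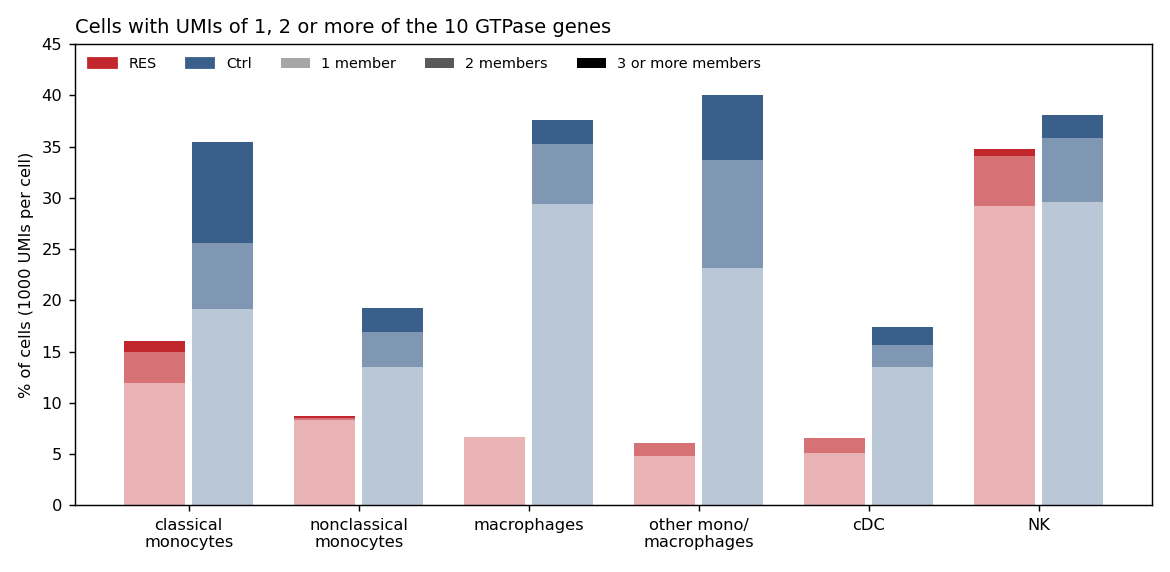
Share of cells, each thinned to 1000 UMIs, with UMIs of 1 (pale), 2 (middle) or 3 or more (dark) of the 10 GTPase genes, in 6 classes, with RES left of Ctrl. RES bars are lower than Ctrl bars in the monocyte, macrophage and cDC classes, and dark segments are tallest in Ctrl classical monocytes at 9.88%.

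The genes were seen together in Ctrl monocytes and macrophages. Of 62 thinned Ctrl cells with Gbp5, 85.5% (74.2 to 93.1) also held another of the 10 genes, against 25.5% of the cells without Gbp5. For Gbp2 these shares were 59.2% with it and 20.3% without it. In RES 18 cells held Gbp5, and 38.9% of them (17.3 to 64.3) held another of the genes, against 9.6% of the cells without it. In NK cells Gbp5 was seen with another gene in 34.4% of 32 RES cells (18.6 to 53.2), against 33.4% of the cells without it. In Ctrl NK cells these shares were 45.1% of 51 cells (31.1 to 59.7) and 36%. For Gbp2 they were 35.3% with it and 33.3% without it in RES NK cells, and 44.4% and 36.3% in Ctrl NK cells. For Igtp they were 57.4% of 47 cells with it (42.2 to 71.7) and 36.2% without it in Ctrl NK cells, with an interval above the share without it. Cells of 1 library are not replicates, so these shares describe the libraries.

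Of the interferon gamma pathway upstream of the GTPases, 10 of 11 listed genes had a mean of at least 10 CPM in monocytes and macrophages, and 4 of them were at least 1.5-fold lower and 1 higher in RES. Irf1, a transcription factor, was among the lower ones, with 51.7 CPM in RES and 165 CPM in Ctrl (-1.68, -1.80 to -1.55). The receptor and kinase genes were within 1.5-fold: the ratio was -0.28 for Ifngr1, -0.08 for Ifngr2, -0.02 for Jak1 and -0.16 for Jak2. Socs3, a feedback inhibitor of cytokine receptors, was higher, with 114 CPM in RES and 71.5 CPM in Ctrl (0.67, 0.53 to 0.81). In NK cells none of the 10 genes past the minimum was 1.5-fold lower and 1 was higher, Socs3 (0.74, 0.36 to 1.14). Ifng itself, the gene of interferon gamma, had 96.8 CPM in RES and 139 CPM in Ctrl NK cells (-0.52, -0.67 to -0.37), and 12 UMIs in RES and 3 in Ctrl monocytes and macrophages.

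Of 8 genes of the type I interferon pathway 3 were lower in monocytes and macrophages and none higher, among them Irf7 (-1.44) and Stat2 (-1.11), transcription factors of the type I response. The receptor gene Ifnar1 stood at 89.4 CPM in RES and 88.9 CPM in Ctrl. Other interferon targets were lower as well. Of 12 other interferon gamma targets, which include Irf1 and Socs1 of the list above, 10 had a mean of at least 10 CPM in monocytes and macrophages and all 10 were lower, from Cxcl9 (11.3 CPM in RES, 539 CPM in Ctrl, -5.58) to Cd274 (-0.62). Of 10 antiviral targets all were lower, 9 of them with a mean of at least 10 CPM, and Isg15 was the lowest (40.3 CPM in RES, 186 CPM in Ctrl, -2.21). The median was -1.57 over the first list and -1.91 over the second, counted over the genes past 10 CPM.

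Partners of the GTPases differed less. Of 9 genes for the ubiquitin-like conjugation that places the GTPases on vacuoles, none was 1.5-fold lower in monocytes and macrophages and 1, Gabarapl1, was higher (0.71, 0.40 to 1.04). Gabarap, whose product is conjugated to membranes, had 800.2 CPM in RES and 665 CPM in Ctrl (0.27, 0.22 to 0.31). Of 8 inflammasome genes 2 were lower, Aim2 (-0.60) and Il18 (-0.65), and 1 was higher, Pycard (0.60), which encodes the adaptor ASC. Aim2 and Pycard lay at the edge of the threshold. The medians of these lists were 0.12 and -0.53, against 0.04 over all genes. As a sign of handling, 3 of 8 early response and heat shock genes stood at least 1.5-fold higher in RES in these cells, with Hspa1b at 48.3 CPM in RES and 13 CPM in Ctrl (1.89, 1.59 to 2.21), and none was lower. The part of handling in the GTPase values was not tested.

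**Figure D5:**
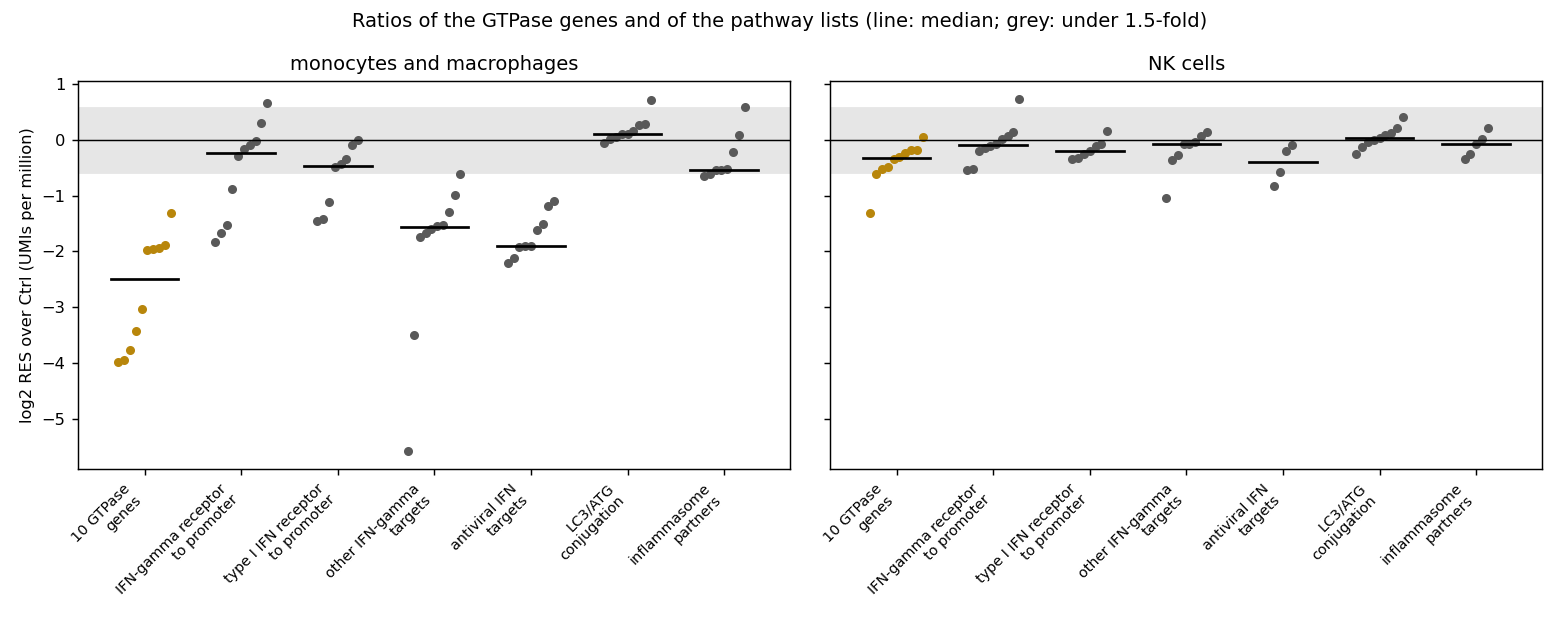
Log2 ratio of RES over Ctrl for the 10 GTPase genes and for the genes of 6 pathway lists with a mean of at least 10 CPM, in monocytes and macrophages and in NK cells; each point is a gene, the line the median and the grey band ratios under 1.5-fold. In monocytes and macrophages the GTPase genes and both target lists lie below the band, and the conjugation genes lie within it except Gabarapl1.

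Other GTPases of the families and their relatives were mostly lower in monocytes and macrophages too. Of 16 listed genes 13 were in the tables, and 11 of them were lower in RES with no minimum level, where 17.3% of all genes were, none was higher and 2 had no more than 3 UMIs in either library. Irgm2, a GMS-type IRG beside Igtp, had 9.90 CPM in RES and 30.7 CPM in Ctrl (-1.63, -1.92 to -1.35). Gbp9 had 11 CPM in RES and 32.5 CPM in Ctrl (-1.57, -1.84 to -1.30), and the antiviral GTPase Mx1 12.7 CPM in RES and 35.9 CPM in Ctrl (-1.5, -1.76 to -1.24). Gvin1, a very large interferon-inducible GTPase, had 6.27 CPM in RES and 16.1 CPM in Ctrl (-1.36, -1.73 to -0.98), and Gm4070 13.2 CPM in RES and 28.7 CPM in Ctrl (-1.12, -1.38 to -0.85). In NK cells 6 of the 13 were lower with no minimum level, where 14.4% of all genes were, 4 were within 1.5-fold and 3 had too few UMIs. Of the 5 above 10 CPM 1 was lower in NK cells, Gbp9 (-0.66, -0.99 to -0.32), while Gbp8 (0.02), Gm4070 (0.08), Gvin1 (0.40) and Irgm2 (-0.39) were within 1.5-fold.

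Across 14 points (7 classes in 2 libraries), 5759 genes were ranked by the correlation of log2(CPM + 1) with the summed 10 genes, which was taken as a description because classes share a library and its depth. Among the 8 most alike were Slfn8 (r = 0.91), Utp3 (0.91), Ifi206 (0.90), Psmb10 (0.90), Irf1 (0.90), Cabin1 (0.87) and Xaf1 (0.87). Each of the 10 genes was also set against the sum of the other 9. Ifi47 was the most like the rest (r = 0.90) and Irgm1 the least (r = 0.64). Gbp4 and Gbp7 had their highest levels in NK cells of Ctrl, while Gbp2, Gbp5, Igtp, Irgm1, Iigp1 and Ifi47 had theirs in gated classical monocytes of Ctrl. For some genes the interval overlapped that of the next level. In Ctrl this level was in the remaining monocytes and macrophages for Gbp2, macrophages for Irgm1 and cDC for Iigp1. For Gbp7 it was in NK cells of RES.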

How the data were processed

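The authors deposited raw UMI counts for 2 libraries, with no normalization. They were made with Cell Ranger 3.1.0, per the file headers, and the submitters' processing notes name bcl2fastq, Cell Ranger and the mm10 build. The gene annotation behind them is not given in the sources used here. Members and gene lists were chosen with earlier results of these data known.

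Barcodes under 200 genes or over 10% mitochondrial UMIs were left out (121 in RES, 245 in Ctrl), then those with the highest scrublet doublet scores, at 0.8% per 1000 barcodes (138 in RES, 95 in Ctrl). Cells were placed in classes by the number of listed markers with a UMI. The 10 GTPase genes and the genes of the interferon lists were not markers, but Fcgr1 and Bst2, which interferon can also induce, were. A class needed at least 4 markers for NK and B cells and 3 for the others, with upper limits of 1 to 4 markers of competing lists, and monocyte subsets and macrophages needed at least 4 of their own. These limits were set after the counts were seen. With each minimum raised by 1 and each limit lowered, 1665 of 1989 RES and 865 of 1076 Ctrl monocytes and macrophages stayed in their class. Cells that met no gate (258 in RES, 307 in Ctrl) entered no class comparison. Leiden clustering at resolution 1 in scanpy 1.11.5, on 15 neighbours in 30 components of 2000 variable genes without the members and interferon lists, gave 19 clusters. Sums in Python 3.11.15 with numpy 2.4.6, pandas 2.3.3 and scipy 1.17.1 gave exact Poisson intervals of levels, exact conditional binomial intervals of ratios and Clopper-Pearson intervals of shares.

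No test or p-value was possible with 1 library per group. A gene was counted as lower or higher from a 1.5-fold difference on, unless both libraries had at most 3 UMIs. For 0 UMIs the bound was taken at 3 counts per library. Named were all 10 members, the other family GTPases with a mean of at least 10 CPM, up to 4 genes of each list by highest and lowest ratio with a mean of at least 20 CPM, and the 8 genes of most similar pattern. A gene that these rules select is not reported here. Ifngr1, Ifngr2, Jak1, Jak2, Ifng, Gabarapl1, Gabarap and Il18, and the genes used for carried-over RNA, were named after their values were seen. The ratios and intervals were tested on simulated counts. Alternatives were a 2-fold threshold, no minimum level, median-ratio scaling, means over cells, gates on thinned cells, Leiden clusters as classes, a mitochondrial limit of 5%, no doublet removal and a pseudocount of 10 CPM. Stricter gates and leaving out shared barcodes were added after seeing the data.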

Additional observations from a re-analysis of the deposited data

Results flagged for a closer look

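Gvin1, a very large interferon-inducible GTPase outside the 10 genes, had opposite directions in the 2 main cell types. In monocytes and macrophages it had 6.27 CPM in RES and 16.1 CPM in Ctrl, a log2 ratio of -1.36 (-1.73 to -0.98). In NK cells it had 44.1 CPM in RES and 33.5 CPM in Ctrl, a log2 ratio of 0.40 (0.13 to 0.67). Both counting intervals excluded 0, but the NK value was under 1.5-fold and the difference between the cell types was not tested.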

How the results depend on the processing

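Of 88 recomputed counts of lower genes, 83 were within 1.5 times of the reported count. Some could not move: the count of the 10 genes used no minimum level in any setting, so that alternative left it as it was. Other gates and Leiden clusters likewise left the counts and ratios over all kept cells as they were. In NK cells 1 gene was lower, in place of 2, with a 2-fold threshold, with median-ratio scaling and with means over cells. With Leiden clusters as classes 4 genes were lower in nonclassical monocytes, in place of 9. With stricter gates, added after seeing the data, 5 were lower in cDC, in place of 10, among 46 RES and 99 Ctrl cells. Of 760 recomputed ratios and shares, 627 moved by less than their counting interval, 133 moved by more and no ratio of 1.5-fold or more changed sign. The summed ratio of the 10 genes ranged from -2.52 to -2.23 in monocytes and macrophages, from -2.23 to -0.89 in classical monocytes, from -2.07 to -0.87 in nonclassical monocytes, from -1.94 to -1.03 in cDC and from -0.25 to -0.17 in NK cells. The smallest differences in both monocyte classes came from Leiden clusters. The causes were not tested. Scaling moved the median of all genes by at most 0.09. Leiden clusters gave no macrophage value (9 RES and 49 Ctrl cells), and the 5% mitochondrial limit gave none for B cells. No paired analysis was possible because each group had 1 library, and no library could be left out. Genes with few UMIs, Iigp1 and Tgtp2 above all, are limited by depth: with a pseudocount of 10 CPM their ratios in monocytes and macrophages were -1.12 and -0.73.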

Other observations

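Cells outside the compared classes also carried the 10 genes. In T cells, of which there were 46 in RES and 37 in Ctrl, they summed to 510 CPM in RES (430 to 602) and 660 CPM in Ctrl (558 to 774), with Gbp7 the most abundant in both. In migratory dendritic cells, 25 in RES and 31 in Ctrl, the sum was 404 CPM in RES and 572 CPM in Ctrl, and Gbp2 led. Plasmacytoid dendritic cells, 13 in RES and 24 in Ctrl, had 228 CPM in RES (153 to 328) and 120 CPM in Ctrl (76.0 to 180), with overlapping intervals. The cells that met no gate had 192 CPM in RES and 621 CPM in Ctrl.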
